A study of Mus musculus with 6 samples.

Results

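The 32 genes described here encode enzymes of mitochondrial and peroxisomal fatty acid oxidation, enzymes of ketone body metabolism, and target genes of the peroxisome proliferator-activated receptors (PPARs). Their rows were taken by symbol, from a list chosen with earlier results of these data known. All 32 were found among the 23390 genes of the deposited table, and all 32 passed the filter on low counts, which left 13740 genes for testing. RNA came from living cells of the small intestine of C57BL/6 mice, kept when they carried the epithelial surface protein EpCAM and lacked the leukocyte protein CD45. Both groups carried floxed Maf, the gene of the transcription factor c-Maf: 3 libraries were from Maf.flox mice without Cre and 3 from Vil.Cre Maf.flox mice, in which the villin promoter drives Cre in the intestinal epithelium. No treatment, age or feeding state is given in the labels. No group carried Cre alone, so effects of Cre and of Maf loss cannot be told apart.

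Fatty acids enter mitochondria as carnitine esters, and a spiral of dehydrogenation, hydration, a second dehydrogenation and thiolytic cleavage then shortens them, with electrons passed on by the electron transfer flavoprotein. Peroxisomes run a similar spiral on very long and branched chains with their own enzymes. Acetyl-CoA from either route can be made into ketone bodies. PPARs are nuclear receptors that bind fatty acids and raise transcription of many of these genes, in the intestine as in the liver, and small-intestinal enterocytes meet large amounts of dietary fat. The comparison of the genotypes bears on whether these genes differ in RNA level when Maf is lost. Fatty acid oxidation itself was not measured.

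Maf RNA was checked first. The 3 Maf.flox libraries had 395, 292 and 185 CPM (counts scaled by library size and the trimmed mean of M values) for replicates 1, 2 and 3, and the 3 Vil.Cre Maf.flox libraries had 0.812, 0.0587 and 0.0428 CPM. This gave a log2 fold change of -9.89 (SE 0.704) with an adjusted p of 0.0133 from the quasi-likelihood F test of edgeR, adjusted by Benjamini-Hochberg over 13740 genes, which is the test behind every adjusted p below unless another tool is named. Without Maf.flox replicate 2, or without Vil.Cre Maf.flox replicate 2 or 3, the adjusted p of Maf was 0.0557, 0.0556 and 0.0563. Values below keep the replicate order. Library totals lay between 17464355 and 24802525 counts, and on this scale 1 CPM is 17.0 to 23.8 counts. By Xist and Y-linked counts, Maf.flox replicate 1 and Vil.Cre Maf.flox replicates 1 and 2 were male, and the other 3 libraries female. Maf.flox replicate 3 stood apart from the other controls (chi-square per gene 133 and 61.6, where the other pair had 37.8). Nothing in the labels says that libraries came from separate mice, so each p-value reflects only how these libraries spread. Summed enterocyte markers ranged from 11069 to 20226 CPM in Maf.flox and 9633 to 14180.2 CPM in Vil.Cre Maf.flox, leukocyte markers from 17.8 to 26.8 and 21.0 to 26.3 CPM, and stromal and endothelial markers from 1.38 to 2.44 and 1.24 to 2.54 CPM, so epithelial markers were abundant and those of the cells sorted against were low.

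None of the 32 genes passed an adjusted p of 0.05, where 75 of 13740 genes (0.546%) did, 49 of them lower in Vil.Cre Maf.flox (0.357%) and 26 higher (0.189%). The median log2 fold change was 0.0019 over the 32 genes and -0.010 over all genes tested, with 16 of the 32 below 0 and 16 above. At an unadjusted p under 0.05, 5 genes were lower in Vil.Cre Maf.flox (15.6%, against 9.25% of all genes tested) and 2 were higher (6.25%, against 7.11%). The 3 libraries of each genotype did not overlap for 4 genes that were lower (12.5%, against 10.5% of all genes) and 4 that were higher (12.5%, against 10.1%), shares near those of the whole table. DESeq2 called 4 of the 32 (Angptl4, Acot12, Crat and Acaa1a, all lower; 5.09% of all genes it tested) and limma-voom called 0 of the 32. Leaving out Maf.flox replicate 3 called 6, the same 4 with Hsd17b4 and Acaa1b, all lower (5% of all genes tested in that fit). Upper quartile scaling called Angptl4 (0.75% of all genes), the fit with no filter called Acot12 (1.58%), the replicate block called Angptl4 and Acaa1a (3.2%), and leaving out Maf.flox replicate 1 called Angptl4 (0.221%). For 21 of the 32 genes the unadjusted 95% interval of the fold change lay wholly within 1.5-fold in either direction. The same held for 30 of 61 other genes of these pathways, described below. The share over all genes tested was not counted, so 21 of 32 is not shown to be unusual.

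**Figure D1:**
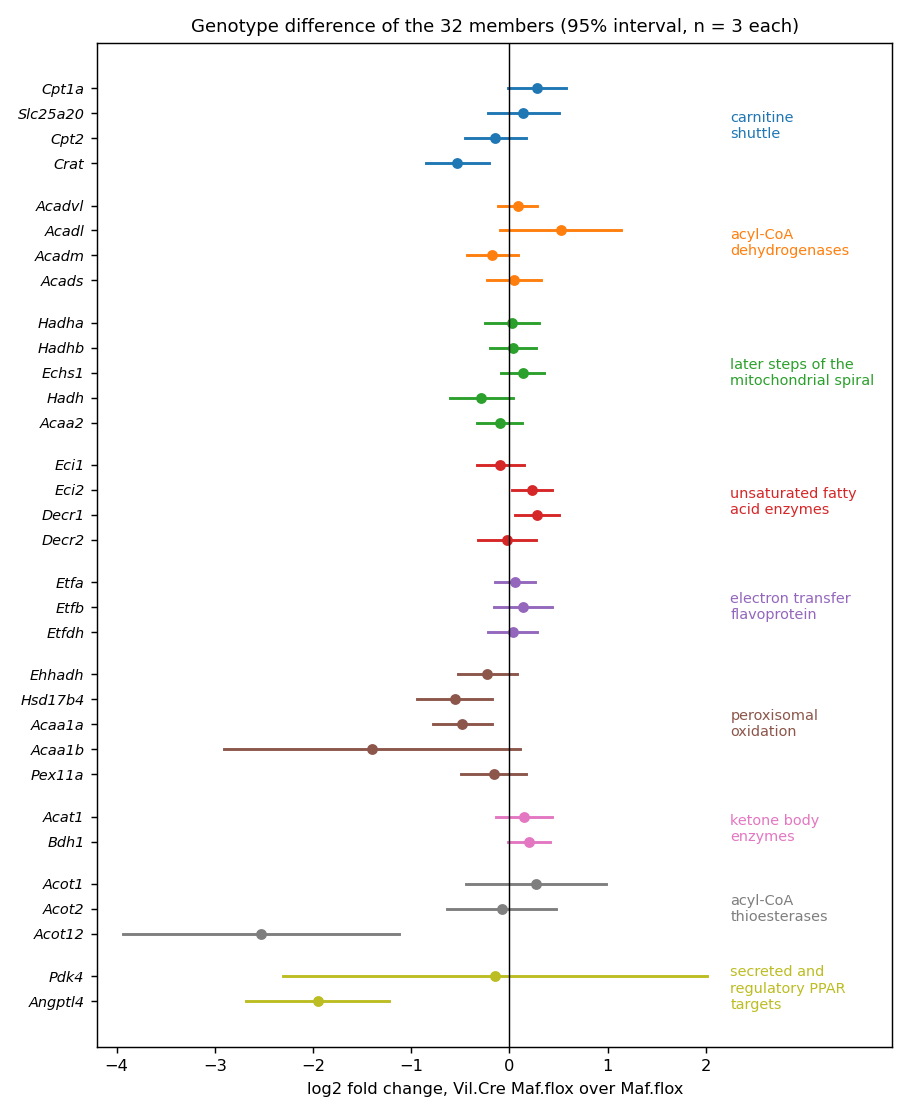
Log2 fold change of each of the 32 genes (x axis, Vil.Cre Maf.flox over Maf.flox, 3 libraries each), with genes grouped and coloured by role on the y axis; dots are estimates and lines are unadjusted 95% intervals. Most mitochondrial genes lie close to 0 with short intervals, while Acot12 at -2.53, Angptl4 at -1.95 and Acaa1b at -1.40 lie far below 0 with long ones.

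The carnitine shuttle moves long-chain acyl groups into the matrix. Cpt1a, which encodes the outer-membrane acyltransferase that controls entry, had 263, 202 and 240.1 CPM in Maf.flox and 263, 278 and 317 CPM in Vil.Cre Maf.flox. The groups overlapped by a narrow margin, since Maf.flox replicate 1 reached the level of Vil.Cre Maf.flox replicate 1 (log2 fold change 0.28, 95% interval -0.015 to 0.58, adjusted p = 0.332). For the carrier Slc25a20 the log2 fold change was 0.14 (SE 0.159), for the inner-membrane acyltransferase Cpt2 it was -0.14 (SE 0.137), and in both the groups overlapped. Crat, the carnitine acetyltransferase of mitochondria and peroxisomes, which acts on short chains, had 89.6, 81.2 and 61.0 CPM in Maf.flox and 51.2, 57.3 and 52.2 CPM in Vil.Cre Maf.flox. Every Maf.flox library was above every Vil.Cre Maf.flox library, at group means of 77.3 ± 14.7 and 53.6 ± 3.28 CPM (SD, n = 3 each). The log2 fold change of Crat was -0.53 (SE 0.143, adjusted p = 0.129), which did not pass. Crat (GRCm38 chromosome 2, 30400471 to 30415813, minus strand) shares 7.63% of its annotated exon bases with an antisense gene, and strand use in counting is not given in the sources used here.

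The acyl-CoA dehydrogenases, which take the first step of the spiral for very long (Acadvl), long (Acadl), medium (Acadm) and short (Acads) chains, overlapped between the genotypes in all 4 cases. Acadvl had 97.7, 93.0 and 90.7 CPM in Maf.flox and 95.7, 101 and 102 CPM in Vil.Cre Maf.flox, a log2 fold change of 0.082 with a 95% interval of -0.12 to 0.28. It shares 42.9% of its exon bases with Dvl2 on the other strand. Acadm and Acads had log2 fold changes of -0.17 (SE 0.114) and 0.047 (SE 0.121). Acadl differed from these in its spread: it had 85.6, 74.3 and 68.0 CPM in Maf.flox and 152, 68.9 and 106 CPM in Vil.Cre Maf.flox. Vil.Cre Maf.flox replicate 1 was the highest library for Acadl, and replicate 2 of the same genotype lay within the range of the controls. Its log2 fold change of 0.52 (SE 0.264, adjusted p = 0.382) ran from 0.22 to 0.79 when single libraries were left out.

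Among the later steps of the mitochondrial spiral, the trifunctional protein of the inner membrane is built from Hadha and Hadhb. Hadha had 388, 313 and 309 CPM in Maf.flox and 341, 333 and 357 CPM in Vil.Cre Maf.flox, and Hadhb had 142, 119 and 134 CPM against 129, 136 and 142 CPM. Their log2 fold changes were 0.029 (95% interval -0.25 to 0.31) and 0.039 (95% interval -0.20 to 0.27), so that each interval excluded a change of 1.5-fold. The short-chain hydratase Echs1 overlapped between the groups at a log2 fold change of 0.13 (SE 0.0945), as did the matrix thiolase Acaa2 at -0.10 (SE 0.102). Hadh, the matrix hydroxyacyl-CoA dehydrogenase, had 731, 647 and 600.0 CPM in Maf.flox and 484, 626 and 513 CPM in Vil.Cre Maf.flox. Vil.Cre Maf.flox replicates 1 and 3 lay below all controls and replicate 2 lay among them (log2 fold change -0.29, SE 0.141, adjusted p = 0.363). Per kilobase of listed gene length, by the authors' deposited FPKM, Hadh had the highest level of the 32 genes in Maf.flox (mean 132), followed by Acaa2 (109) and Eci1 (96.3). Hadha, at 38.4 FPKM, has a listed length of 8.73 kb against 1.09 kb for Eci1, so the order of levels depends on how gene length was set.

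Unsaturated chains need isomerases and reductases besides the spiral. Decr1, the mitochondrial dienoyl-CoA reductase, had 107, 96.6 and 101 CPM in Maf.flox and 126, 131 and 113 CPM in Vil.Cre Maf.flox, and every Vil.Cre Maf.flox library was above every control (log2 fold change 0.28, SE 0.10, unadjusted p = 0.0217, adjusted p = 0.218, edgeR). The isomerase Eci2 showed the same separation, with 42.2, 39.7 and 43.8 CPM in Maf.flox and 50.5, 47.3 and 49.4 CPM in Vil.Cre Maf.flox (log2 fold change 0.23, SE 0.0903, unadjusted p = 0.0336, adjusted p = 0.257, edgeR). Both shifts were small, with 95% intervals of 0.052 to 0.51 and 0.022 to 0.43, and neither passed over all genes. The mitochondrial isomerase Eci1 (-0.093, SE 0.106) and the peroxisomal reductase Decr2 (-0.026, SE 0.129) overlapped between the groups.

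The electron transfer flavoprotein and its oxidoreductase hand electrons from the dehydrogenases to ubiquinone. Etfa, its alpha subunit, had the smallest standard error of the 32 genes (0.0884), at 159, 160.1 and 163 CPM in Maf.flox and 165, 167 and 169.6 CPM in Vil.Cre Maf.flox. All Vil.Cre Maf.flox libraries were above the controls, but their mean was 104% of the control mean and the log2 fold change of 0.057 had a 95% interval of -0.14 to 0.26 that included 0. Etfb, the beta subunit, and Etfdh, the oxidoreductase, had log2 fold changes of 0.14 (SE 0.131) and 0.032 (SE 0.111). Etfb shares 53.0% of its exon bases with a predicted gene on its own strand, and its counts may depend on how such reads were assigned.

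The 5 genes grouped here as peroxisomal oxidation all lay on the lower side, and none was called. Their median log2 fold change was -0.48, or from -0.58 to -0.37 with single libraries left out. Over all genes tested 51.6% lay below 0. The count depends on the grouping: the peroxisomal reductase Decr2, at -0.026, and the isomerase Eci2, at 0.23, were placed with the enzymes of unsaturated chains. Acaa1a, a peroxisomal thiolase (GRCm38 chromosome 9, 119339676 to 119350299, plus strand), had 276, 314 and 235 CPM in Maf.flox and 189, 218 and 185 CPM in Vil.Cre Maf.flox, with no overlap between the genotypes. Its means were 275 ± 39.3 and 197 ± 17.8 CPM (SD, n = 3 each), its log2 fold change was -0.48 (SE 0.132) and its adjusted p was 0.132 by edgeR. Hsd17b4, the bifunctional enzyme of the branched-chain route (GRCm38 chromosome 18, 50128201 to 50196269, plus strand), had 242, 213 and 163 CPM in Maf.flox and 119, 163 and 137 CPM in Vil.Cre Maf.flox. The 2 genotypes met at 163 CPM, where Maf.flox replicate 3 and Vil.Cre Maf.flox replicate 2 were level (log2 fold change -0.56, SE 0.169, adjusted p = 0.162). Ehhadh, the other bifunctional enzyme, and Pex11a, a PPAR-induced factor of peroxisome division, had log2 fold changes of -0.23 (SE 0.132) and -0.16 (SE 0.145), and both overlapped between the groups.

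Acaa1b, the second peroxisomal thiolase gene (GRCm38 chromosome 9, 119148023 to 119157093, minus strand), had 19.5, 9.37 and 3.18 CPM in Maf.flox and 3.25, 5.81 and 3.17 CPM in Vil.Cre Maf.flox. The controls themselves differed widely, and Maf.flox replicate 3 was as low as the Vil.Cre Maf.flox libraries. The log2 fold change of -1.40 had an SE of 0.630 (adjusted p = 0.339), and ran from -1.84 to -0.62 with single libraries left out. The coding sequences of Acaa1a and Acaa1b, both 1275 bases long, were identical at 96.5% of positions, with an unbroken identical stretch of 327 bases. Reads from such stretches cannot be assigned to 1 of the 2 genes with certainty, so the value of Acaa1b is uncertain. Acaa1a and Acaa1b also share 6.57% and 11.4% of their exon bases with Myd88 and Dlec1 on the other strand. Summed over the 5 peroxisomal genes, the level was 698, 677 and 526 CPM in the Maf.flox libraries and 427, 519.5 and 444 CPM in the Vil.Cre Maf.flox libraries. Each Vil.Cre Maf.flox sum was below each Maf.flox sum, with Maf.flox replicate 3 and Vil.Cre Maf.flox replicate 2 nearly level. These sums rest mostly on Acaa1a and Hsd17b4. Sums also did not overlap for Acat1 with Bdh1, higher in Vil.Cre Maf.flox (325.9 CPM or more, against 325.2 or less). The same held for Pdk4 with Angptl4, lower in Vil.Cre Maf.flox (9.58 CPM or less, against 16.5 or more). That sum rests mostly on Angptl4, since Pdk4 alone overlapped between the genotypes. Sums of the remaining roles overlapped. Enterocyte markers lay on the lower side, as did the peroxisomal genes. Of 9 enterocyte markers, 7 lay below 0 (median log2 fold change -0.39), with Alpi, Apoa1 and Apoa4 at -1.0, -1.30 and -1.23. The rest lay closer to 0, with Apob at -0.68, Vil1 at -0.39, Sis at -0.21, Epcam at -0.096, Krt20 at 0.016 and Cdh1 at 0.044. Alpi, a brush-border phosphatase, had 576, 495 and 243 CPM in Maf.flox and 207, 277 and 175 CPM in Vil.Cre Maf.flox, so that Maf.flox replicate 3 was again level with the Vil.Cre Maf.flox libraries. Markers of other epithelial cells also lay below 0: 5 of 5 tuft cell markers tested (median -1.53), 5 of 6 Paneth cell markers (-1.12), 4 of 6 enteroendocrine markers (-0.54), 5 of 5 stem cell markers (-0.37) and 5 of 6 goblet cell markers (-0.28), whereas 2 of 5 markers of proliferating cells did (0.025). Summed levels overlapped between the genotypes for enterocyte, Paneth, enteroendocrine, stem and goblet cell markers. Paneth cell sums ran from 4940 to 30604 CPM in Maf.flox and from 6914 to 9805 CPM in Vil.Cre Maf.flox. Maf.flox thus held both the lowest and the highest Paneth cell sum. Sums did not overlap for tuft cell markers, at 15.6 to 62.8 CPM in Maf.flox and 13.2 to 14.5 CPM in Vil.Cre Maf.flox. None of these markers passed the test. The part of these cell types in the peroxisomal values, and in those of Crat, Acot12 and Angptl4, was not tested, and in such bulk libraries fewer cells of a type and less RNA per cell cannot be told apart.

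**Figure D2:**
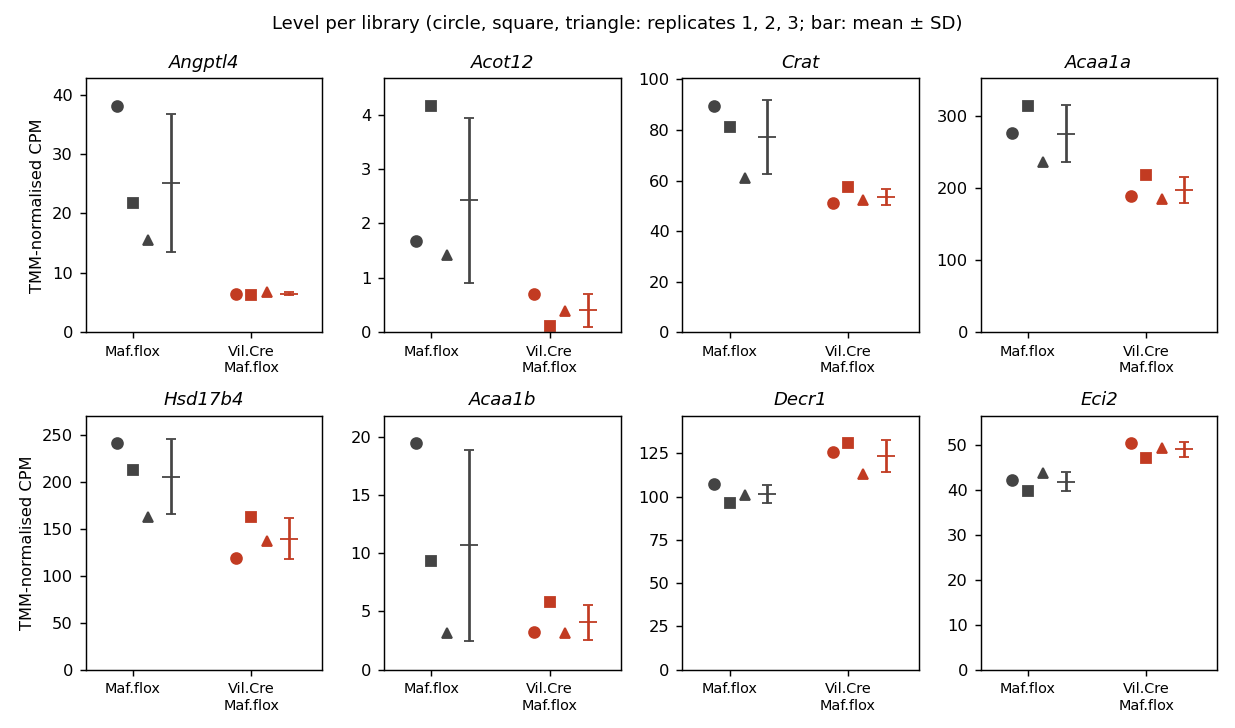
TMM-normalised CPM (y axis, from 0) of 8 genes in the 3 Maf.flox (grey) and 3 Vil.Cre Maf.flox (red) libraries; symbols are replicates and the bars beside them are mean ± SD. Angptl4, Acot12, Crat and Acaa1a are lower in every Vil.Cre Maf.flox library, Hsd17b4 meets at 163 CPM, Acaa1b overlaps, and Decr1 and Eci2 are higher in every Vil.Cre Maf.flox library.

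The promoters of 4 of these genes are shown because they include both thiolase genes, the gene with the lowest log2 fold change of the 32 (Acot12) and, for contrast, the entry enzyme Cpt1a. Each runs from 250 bases before to 50 bases after the transcription start in RefSeq (GRCm38.p6), 5′ to 3′ on the gene's strand, and capitals mark AGGTCA on either strand, the core hexamer of PPAR binding elements. The start used for Acaa1a lies inside the bounds that the deposited table gives this gene.
Acaa1a promoter (chr9:119341044-119341343, plus strand): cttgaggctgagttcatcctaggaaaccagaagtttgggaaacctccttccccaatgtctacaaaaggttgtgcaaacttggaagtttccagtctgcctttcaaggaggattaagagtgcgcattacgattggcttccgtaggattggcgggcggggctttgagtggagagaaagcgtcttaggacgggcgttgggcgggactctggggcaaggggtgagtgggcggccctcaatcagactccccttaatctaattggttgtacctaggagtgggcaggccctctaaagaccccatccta
Acaa1b promoter (chr9:119157044-119157343, minus strand): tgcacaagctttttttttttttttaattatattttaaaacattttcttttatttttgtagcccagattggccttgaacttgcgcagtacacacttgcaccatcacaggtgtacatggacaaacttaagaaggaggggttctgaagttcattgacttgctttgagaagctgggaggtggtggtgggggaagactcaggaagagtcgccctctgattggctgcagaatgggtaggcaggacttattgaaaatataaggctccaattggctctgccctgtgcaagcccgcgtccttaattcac
Acot12 promoter (chr13:91741271-91741570, plus strand): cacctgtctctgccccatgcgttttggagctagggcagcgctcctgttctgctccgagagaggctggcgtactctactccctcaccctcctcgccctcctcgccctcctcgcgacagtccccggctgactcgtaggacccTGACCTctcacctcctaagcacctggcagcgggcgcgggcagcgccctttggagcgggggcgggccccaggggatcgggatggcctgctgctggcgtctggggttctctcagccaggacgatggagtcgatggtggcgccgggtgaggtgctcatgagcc
Cpt1a promoter (chr19:3323051-3323350, plus strand): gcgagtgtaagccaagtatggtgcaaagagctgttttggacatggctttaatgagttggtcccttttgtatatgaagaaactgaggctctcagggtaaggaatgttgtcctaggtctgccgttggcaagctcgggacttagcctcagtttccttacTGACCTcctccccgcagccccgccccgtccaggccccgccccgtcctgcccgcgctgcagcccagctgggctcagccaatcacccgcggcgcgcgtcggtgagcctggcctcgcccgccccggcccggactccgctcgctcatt
The hexamer stood 110 bases before the start of Acot12 and 94 bases before that of Cpt1a, both as TGACCT on the strand shown, and neither thiolase promoter held it. Among the 26 of 32 genes with a promoter in the RefSeq table, 5 held AGGTCA (Acadm, Acadvl, Acot12, Cpt1a and Echs1), as did 16.3% of all 32851 promoters. Acaa2, Acat1, Angptl4, Crat, Decr1 and Hsd17b4 had no promoter in that set, so no motif count here covers them. A direct repeat of 2 hexamers with 1 base between them, the form PPARs bind, searched as AGGTCA or more loosely as AGGNCA, occurred in none of the 26, against 0.0396% and 0.381% of all promoters. At shares this low, its absence from 26 promoters cannot set these genes apart from the rest. TGCTGA, the core of 1 arm of the Maf recognition element, occurred in 2 (Acot2 and Etfb), against 19.5% of all promoters. Matches of the hexamer include those inside a direct repeat. All were searched on both strands. These matches describe letters in a short window and not binding.

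Ketone body genes lay slightly on the higher side. Bdh1, which interconverts acetoacetate and beta-hydroxybutyrate, had 148, 145 and 161 CPM in Maf.flox and 173, 176 and 172 CPM in Vil.Cre Maf.flox. The groups did not overlap, and the log2 fold change was 0.20 (SE 0.0933, 95% interval -0.016 to 0.41, adjusted p = 0.345). Bdh1 shares 13.7% of its exon bases with an antisense gene. Acat1, the mitochondrial acetoacetyl-CoA thiolase, had 123, 131 and 164 CPM in Maf.flox and 154, 150.2 and 159.5 CPM in Vil.Cre Maf.flox, where Maf.flox replicate 3 was the highest of all (log2 fold change 0.15, SE 0.124). Oxct1, which uses ketone bodies as fuel and is not one of the 32, had 241, 262 and 259 against 336, 354 and 276 CPM, with no overlap (log2 fold change 0.34, SE 0.121, adjusted p = 0.214). Oxct1 shares 12.6% of its exon bases with a gene on the other strand. Slc16a1, which carries monocarboxylates and ketone bodies, stood at a log2 fold change of 0.10 (SE 0.0888).

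Acyl-CoA thioesterases release free fatty acids or acetate from CoA, and all 3 genes had low levels here. Acot12, the cytosolic acetyl-CoA hydrolase (GRCm38 chromosome 13, 91741512 to 91786148, plus strand), had 40, 80 and 30 counts in Maf.flox and 14, 2 and 9 counts in Vil.Cre Maf.flox, or 1.68, 4.16 and 1.42 against 0.710, 0.117 and 0.385 CPM. Every control was above every Vil.Cre Maf.flox library, whose mean was 16.7% of the control mean. Acot12 shares 4.52% of its exon bases with an antisense gene. The log2 fold change was -2.53 (SE 0.616) with an adjusted p of 0.105 by edgeR, and over the alternative fits the adjusted p ran from 0.00247 to 0.353. Acot1 and Acot2 lie side by side on chromosome 12 and encode cytosolic and mitochondrial long-chain thioesterases. Acot1 had 6.14, 3.38 and 5.17 CPM in Maf.flox and 4.31, 4.93 and 8.47 CPM in Vil.Cre Maf.flox, and Acot2 had 6.47, 3.75 and 5.22 against 4.26, 4.58 and 5.78 CPM. Both overlapped between the groups, with log2 fold changes of 0.27 (SE 0.313) and -0.080 (SE 0.245). Their coding sequences were identical at 95.2% of aligned positions, so reads may also have been split between these 2 genes.

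Angptl4 came closest to the threshold of the 32 genes. It encodes a secreted inhibitor of lipoprotein lipase, is induced by fatty acids through PPARs, and lies on GRCm38 chromosome 17, 33773750 to 33781575, minus strand. It had 907, 417 and 328 counts in Maf.flox and 126, 108 and 158 counts in Vil.Cre Maf.flox, or 38.1, 21.7 and 15.6 against 6.39, 6.34 and 6.76 CPM. The controls spread more than 2-fold while the Vil.Cre Maf.flox libraries were nearly equal, and no library overlapped. Means were 25.1 ± 11.7 and 6.50 ± 0.229 CPM (SD, n = 3 each), so the Vil.Cre Maf.flox level was 25.9% of the control level. The log2 fold change was -1.95 (SE 0.314, 95% interval -2.68 to -1.22), and the adjusted p of 0.0519 by edgeR lay just above 0.05, at rank 79 of 13740 genes. It passed in 5 of 14 alternative fits, with adjusted p from 1.36e-08 to 0.259 over the 14 fits, and its log2 fold change ran from -2.20 to -1.51 with single libraries left out. Adipocytes, which the sort for EpCAM would remove, also make Angptl4. Of 5 adipocyte markers, Adipoq, Lep and Plin1 are not analysed here. Retn had 0 counts in every library, and Cidec, which enterocytes also express, had 14.7, 14.3 and 4.98 CPM in Maf.flox and 4.97, 4.58 and 4.54 CPM in Vil.Cre Maf.flox. The part of adipocyte RNA in the Angptl4 values was not tested.

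Pdk4, the kinase that shuts pyruvate out of the citrate cycle and a common readout of PPAR activity, was scarce. It had 33, 29 and 19 counts in Maf.flox and 8, 1 and 66 counts in Vil.Cre Maf.flox, or 1.39, 1.51 and 0.901 against 0.406, 0.0587 and 2.82 CPM. Vil.Cre Maf.flox replicate 3 held the highest level and replicate 2 the lowest, and the log2 fold change of -0.14 had an SE of 0.920 and a sign that turned when single libraries were left out (-2.36 to 0.39). Per kilobase, by the authors' deposited FPKM, Pdk4 had the lowest level of the 32 genes in Maf.flox (mean 0.359), then Acot12 (0.731) and Acot1 (1.25).

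**Figure D3:**
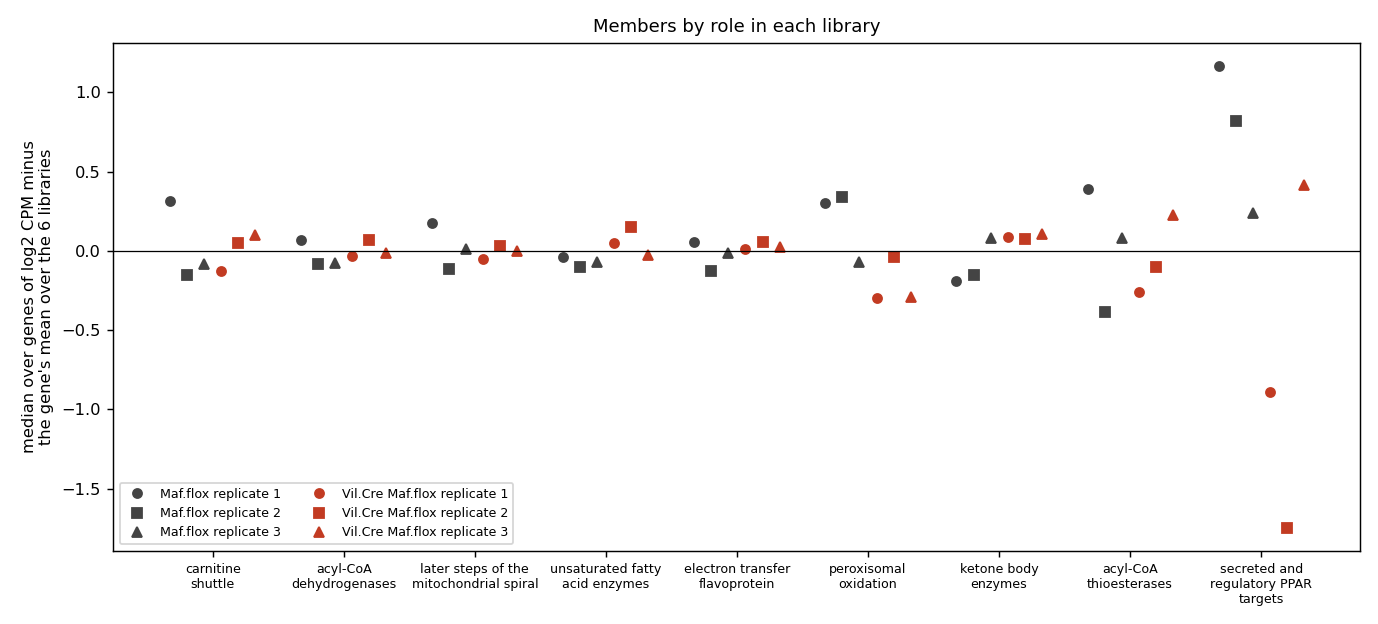
For each role (x axis), the median over its genes of log2 CPM minus the gene's mean over the 6 libraries (y axis), 1 point per library, Maf.flox in grey and Vil.Cre Maf.flox in red. Maf.flox replicate 1 lies at 0.31 in the carnitine shuttle and at 0.18 in the later steps of the mitochondrial spiral. In peroxisomal oxidation 2 of 3 Maf.flox libraries lie above 0 and 3 of 3 Vil.Cre Maf.flox libraries below it. The genotypes overlap there, with Maf.flox replicate 3 at -0.071 and Vil.Cre Maf.flox replicate 2 at -0.042.

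Other genes of these pathways were counted from lists of 71 genes, of which 67 were analysed here and 61 passed the filter on low counts. None of the 61 was called by the edgeR test used throughout or by limma-voom. DESeq2 called 7 (Acox2, Acsl5, Ppard, Lpin1, Creb3l3, Fabp2 and Vnn1), where it called 5.09% of all genes it tested. In edgeR without Maf.flox replicate 3, 13 were called, 6 of them peroxisomal, where 5% of all genes tested in that fit were called. The replicate block called 5 and the fit with no filter 2, against 3.2% and 1.58% of all genes. Leaving out any other single library called none of them. At an unadjusted p under 0.05, 21 were lower and 4 higher (34.4% and 6.56%, against 9.25% and 7.11% of all genes tested), and the median log2 fold change was -0.15. The lists were chosen with earlier results of these data known, so these shares are not a test of the pathways. Of 14 further peroxisomal genes, 10 lay below 0 and 4 above (median -0.33, or -0.43 to -0.22 with single libraries left out). The genotypes did not overlap for 4 lower genes (28.6%, against 10.5% of all genes tested) and 1 higher gene (7.14%, against 10.1%). Acox2, an oxidase of bile acid precursors, had 7.82, 6.77 and 5.31 against 2.94, 3.99 and 2.27 CPM with no overlap (log2 fold change -1.12, SE 0.260, adjusted p = 0.0923). Phyh, which starts alpha oxidation, had a log2 fold change of -0.44 (SE 0.125), also with no overlap.

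Of 17 further genes of mitochondrial activation and oxidation tested, 11 lay below 0 (median -0.050). The acyl-CoA synthetase Acsl5 had 661, 705 and 434 CPM in Maf.flox and 345, 361 and 275 CPM in Vil.Cre Maf.flox, with no overlap (log2 fold change -0.88, SE 0.196, adjusted p = 0.0868). Acsl5 shares 8.31% of its exon bases with Zdhhc6 on the other strand. The carnitine importer Slc22a5 and the dehydrogenase Acad11 had log2 fold changes of -0.47 (SE 0.185) and -0.43 (SE 0.167) and overlapped. Among 12 receptors and coactivators, 9 lay below 0. Ppara, the receptor that drives fatty acid oxidation, had 37.9, 37.4 and 36.0 CPM in Maf.flox and 21.9, 30.9 and 30.4 CPM in Vil.Cre Maf.flox, below every control in each library (log2 fold change -0.42, SE 0.139, adjusted p = 0.191). Ppard, the more widely expressed receptor of the same family, had 217, 237 and 226 CPM in Maf.flox and 283, 293 and 271 CPM in Vil.Cre Maf.flox, above every control in each library (log2 fold change 0.32, SE 0.0976, adjusted p = 0.167, and 0.0426 by DESeq2). Pparg, the third receptor, overlapped between the groups at -0.0021 (SE 0.212). The coactivator Ppargc1a had a log2 fold change of -0.38 (SE 0.114), Lpin1, a phosphatase and coactivator, one of 0.64 (SE 0.189), and the transcription factor Creb3l3, with 103, 116 and 39.5 against 13.9, 9.04 and 13.9 CPM, one of -2.80 (SE 0.440, adjusted p = 0.0674). Of 14 further PPAR targets, 13 lay below 0 (median -0.35). Vnn1, a pantetheinase, had 242, 221 and 124 CPM in Maf.flox and 76.8, 103 and 75.5 CPM in Vil.Cre Maf.flox (log2 fold change -1.20, SE 0.253, adjusted p = 0.0866), and the intestinal fatty acid carrier Fabp2 and the retinal dehydrogenase Aldh1a1 had log2 fold changes of -2.11 (SE 0.419) and -1.35 (SE 0.377). Enterocyte, tuft, Paneth, enteroendocrine, stem and goblet cell markers had medians on the same side as these lists, and their part in them was not tested. The difference between these lists and the mitochondrial genes was not tested.

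**Figure D4:**
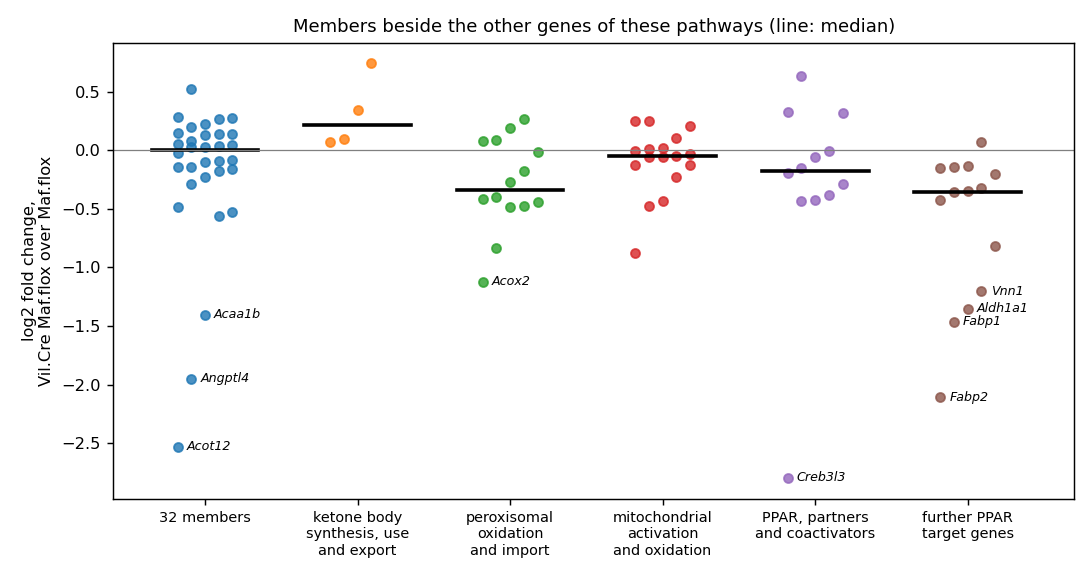
Log2 fold change (y axis, Vil.Cre Maf.flox over Maf.flox) of the 32 genes and of 5 lists of other genes of the same pathways (x axis), 1 dot per gene tested and a black line at the median; genes beyond 1 in either direction are named. The median of the 32 genes is near 0, and those of the further peroxisomal genes and further PPAR targets are -0.33 and -0.35.

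Sex was not balanced, so the genotype difference was also taken as a difference of mean log2 CPM within each sex. Males gave 1 control against 2 Vil.Cre Maf.flox libraries, and females gave 2 controls against 1. The median over the 32 genes was -0.21 in males and 0.084 in females, against 0.0048 and -0.012 over all genes tested. Peroxisomal genes had medians of -0.44 and -0.44, and the carnitine shuttle had -0.35 and 0.27. The 2 values were -2.56 and -1.43 for Angptl4, -2.41 and 1.21 for Pdk4, -0.25 and 0.44 for Slc25a20, -0.45 and 0.10 for Cpt2, and -0.41 and 1.00 for Acot1. These 5 genes (15.6% of the 32) had an unadjusted interaction p under 0.05 by edgeR, against 2.78% of all genes, and none of the 32 passed after adjustment. Each value rests on a genotype with a single library, with 2 residual degrees of freedom in the interaction fit. Maf.flox replicate 1, the only male control, was the highest of the 6 libraries for 14 of the 32 genes (43.8%), against 18.4% of all genes tested, and without it the median log2 fold change of the 32 was 0.068. Sex and a deviation of that library cannot be told apart.

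**Figure D5:**
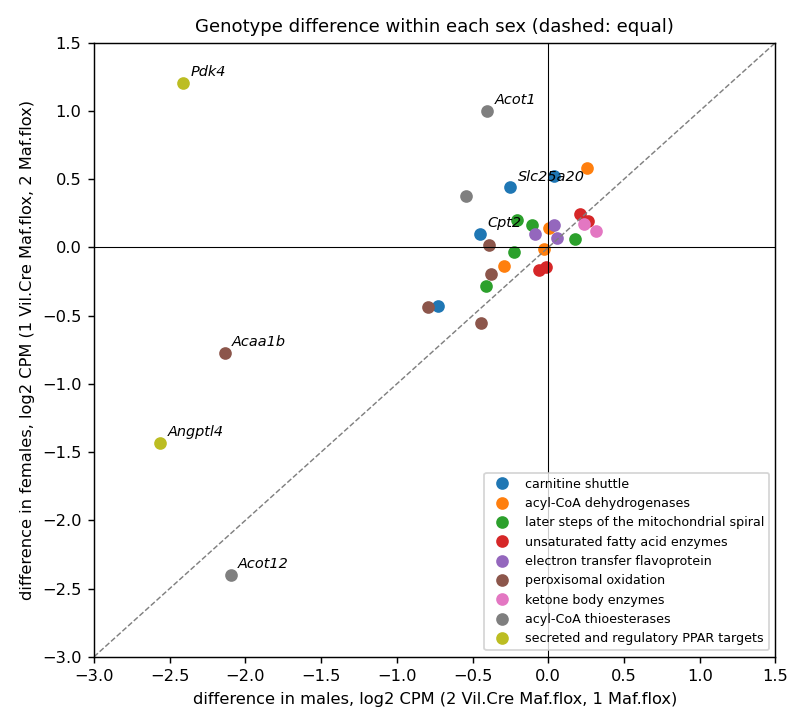
Genotype difference of each of the 32 genes in females (y axis) against males (x axis), in log2 CPM, coloured by role; the dashed line marks equal values, and genes with an unadjusted interaction p under 0.05 or a large male difference are named. Acot12 lies near the line at -2.10 and -2.40, whereas Pdk4 lies at -2.41 in males and 1.21 in females.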

How the data were processed

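RNA was sequenced from 6 libraries of sorted small-intestinal epithelial cells. Per the labels' protocols, poly-T beads captured mRNA and random hexamers primed the cDNA. The submitters' processing notes name HISAT2 (2.0.5), featureCounts (1.5.0-p3) and DESeq2, with GRCm38 (mm10). Their settings, strand included, are not given in the sources used here. The authors deposited raw whole-number counts per gene. They also deposited FPKM values, which scale counts by listed gene length and library size and served only to order genes by level.

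Counts were tested with edgeR 4.0.16 (R 4.3.3): filterByExpr (least count 10), TMM scaling, a robust quasi-likelihood F test of genotype and Benjamini-Hochberg adjustment over 13740 genes. Standard errors are the log2 fold change divided by the root of F, and 95% intervals are unadjusted. For within-sex values, a prior count of 2 was added before taking log2 CPM. Alternatives were RLE and upper quartile scaling, no filter and a stricter filter (1 CPM in all libraries), DESeq2 1.42.0, limma-voom (limma 3.58.1), FDR 0.01 and 0.1, a replicate block, a sex term, within-sex values and each library left out. In simulated counts of these 13740 genes, edgeR called 71% of the 2-fold and 95% of the 4-fold changes put in for this comparison. Of its calls there, 6.74% were false. Whether these rates hold for the real counts was not tested. In the real counts Maf was called, at a log2 fold change of -9.89. Creb3l3, Acot12 and Fabp2 were also estimated beyond 4-fold, at -2.80, -2.53 and -2.11, and were not called.

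The 32 genes, the lists and the tests were chosen with earlier results of these data known. All 32 genes are named; of the other lists, Ppara and the 3 genes with the smallest p per list are named where they are reported here, with Maf as the targeted gene. Results of some genes that the rule would name are not reported here. Ppard, Pparg and the marker genes named beside results were chosen after their values were seen, and the interaction of genotype with sex was added after the data were seen. Not every gene of these lists is analysed here. Coordinates are those of the deposited table (GRCm38). Exon overlaps and coding sequences are from GENCODE M21 and promoters from RefSeq (GRCm38.p6).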

Additional observations from a re-analysis of the deposited data

How the results depend on the processing

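Of the 32 genes, 23 kept their direction in all 14 alternative fits that tested them, and 9 turned in at least 1. Over the whole table, 75 genes were called, against 365 with no filter, 742 with DESeq2, 34 with limma-voom, 38 with the sex term, 440 with the replicate block, 2 at FDR 0.01 and 372 at FDR 0.1. Leaving out single libraries gave 8 to 701 calls: Maf.flox replicates 1, 2 and 3 in turn gave 31, 12 and 701, and Vil.Cre Maf.flox replicates 1, 2 and 3 gave 12, 23 and 8. Of the 32 genes, against 0 called, there was 1 with upper quartile scaling, 1 with no filter, 4 with DESeq2, 2 with the replicate block and 1 at FDR 0.1 (Angptl4), and 0 to 6 with single libraries left out (1 without Maf.flox replicate 1 and 6 without replicate 3). The median over the 32 genes ran from -0.041 to 0.068 with single libraries left out. It was -0.049 with the sex term, -0.0016 with the block and -0.21 within males, so its sign was not fixed. Deviations from the group means correlated at 0.092, -0.026 and 0.27 between libraries of the same number, which did not meet the rule for pairs, and the block is given as a check alone. Direction turned with upper quartile scaling for Decr2 (log2 fold change 0.00095) and with the sex term for Acads (-0.017) and Hadha (-0.0020). With single libraries left out it turned for 9 of the 32 genes. The log2 fold change ran from -0.21 to 0.014 for Cpt2, -0.25 to 0.13 for Acot2 and -0.13 to 0.070 for Decr2, which turned without Maf.flox replicate 1, Acot2 and Decr2 also without Vil.Cre Maf.flox replicate 1, and Decr2 without its replicate 3. It ran from -0.027 to 0.15 for Hadha, -0.022 to 0.11 for Hadhb, -0.022 to 0.11 for Etfdh and -2.36 to 0.39 for Pdk4, which turned without Maf.flox replicate 2, Hadha also without Maf.flox replicate 3, Etfdh and Pdk4 without Vil.Cre Maf.flox replicate 2, and Pdk4 without its replicate 1. It ran from -0.043 to 0.13 for Acads, which turned without Vil.Cre Maf.flox replicate 2, and from -0.089 to 0.48 for Acot1, which turned without Vil.Cre Maf.flox replicate 3. The cause was not tested. Acot12 and Pdk4 had 1 to 80 counts per library, so counting error adds to the spread between libraries there.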
